A study of Homo sapiens with 6 samples.

Results

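The genes described here are the 47 cytosolic chaperone and heat shock genes of A375 cells, an established human melanoma line. They were taken from the deposited expression table by exact symbol, and all 47 were found among its 28395 genes. The list holds the HSP70, HSP110, HSP90 and small heat shock proteins, the J-domain proteins, the co-chaperones, the mitochondrial chaperones, the heat shock factors and the CCT chaperonin. Both groups were unmodified cells (genotype WT in the labels) kept in medium for 6 h. The control, OLO, received 0.01% olive oil. The treatment, OZO, was the same dose of 0.01% of ozonated olive oil, which is the oil after reaction with ozone. RNA was sequenced from 3 libraries of each. The labels do not say whether the libraries of a group came from separate cultures. In the paper, a figure legend for the A375 sequencing data speaks of 3 independent experiments.

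The value available for each gene is the authors' mean log2 CPM, counts scaled to a common library total (CPM), over all 6 libraries, OLO and OZO together. The contrast of OZO with OLO was given only as the authors' own fold changes and p-values, which were not used here. The levels below therefore describe both treatments pooled, with no value per library, no spread between libraries and no test. A level that differs between the treatments cannot be told apart from one that does not.

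Chaperones bind proteins that are not yet folded or have lost their fold. HSP70 proteins hold short exposed stretches in cycles of ATP binding, J-domain proteins bring them their clients and start ATP hydrolysis, and nucleotide exchange factors reset them. HSP90 receives clients from HSP70 through adaptor proteins, and the CCT ring encloses actin, tubulin and other proteins while they fold. Heat shock factors are the transcription factors that switch on many of these genes when unfolded proteins accumulate, by binding repeated GAA units known as heat shock elements.

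The heat shock element is a promoter sequence that can be compared between the members, so it is shown before the levels. A strict form of 3 alternating units, GAANNTTCNNGAA, was searched on both strands (on the opposite strand it reads TTCNNGAANNTTC) in windows of 300 bases, from 250 before to 50 after each annotated start in RefSeq (GRCh38.p14). Of the 40 members with a window, 8 held the motif in at least 1 window, which is 20%, against 166 of 27305 genes (0.608%) overall. By window the shares were 8 of 58 (13.8%) for the members and 172 of 35116 (0.490%) for all promoter windows. A match is a description of the sequence and not a bound site. The matches upstream of an annotated start, which need not be the outermost start of the gene, are printed 5′ to 3′ on the strand of the gene, with the 13 bases of the motif in capitals, for members from the top to the bottom of the range of levels. Matches overlapped in CHORDC1 and HSPD1, where 1 of them is shown, and the match of DNAJA1 lies after its annotated start and is not printed.
HSPA8, chr11:123062171-123062199, minus strand: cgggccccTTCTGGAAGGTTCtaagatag
HSPA8, chr11:123062346-123062374, minus strand: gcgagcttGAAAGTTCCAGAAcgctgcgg
HSP90AA1, chr14:102087112-102087140, minus strand: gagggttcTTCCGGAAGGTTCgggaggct
HSP90AB1, chr6:44247770-44247798, plus strand: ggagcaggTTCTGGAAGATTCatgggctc
HSP90AB1, chr6:44247823-44247851, plus strand: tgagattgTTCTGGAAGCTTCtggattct
HSPD1, chr2:197500060-197500088, minus strand: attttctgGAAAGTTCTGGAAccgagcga
CHORDC1, chr11:90223079-90223107, minus strand: aaattcgcGAAGGTTCCTGAAacgcaacg
DNAJB6, chr7:157336865-157336893, plus strand: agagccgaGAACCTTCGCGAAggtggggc
HSPA6, chr1:161524458-161524486, plus strand: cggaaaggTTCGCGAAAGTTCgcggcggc

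In HSP90AB1 the motif occurred at 165 and at 112 bases before a start, and in HSPA8 at 230 and at 55. Motif-bearing members stood at both ends of the range. HSPA8, HSP90AA1 and HSP90AB1 were the highest of all 47 genes per kilobase, while HSPA6 was among the lowest measured. Among members that reached 10 implied reads per library (derived from the mean level as described next), the median level was 8.93 log2 CPM per kilobase for the 8 with the motif and 7.08 for the 29 without, and the ranges overlapped, from −0.48 to 11.65 and from −1.74 to 9.18. HSPA1A, HSPA1B, DNAJB1 and HSPH1, textbook heat shock genes, had no match to this strict form in their windows, which says only that these letters are absent there.

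To describe how strongly each gene was represented, the mean level was turned into an implied number of reads per library. The table's lowest value belongs to 7012 genes with no read in any library and implies libraries of 18409902 counted fragments (geometric mean over the 6). At that depth 13773 genes (48.5%) reached 10 implied reads, a share over genes of every kind. Of the 19178 protein-coding genes with a known length, 12432 reached it. Of the 47 chaperone genes, 43 (91.5%) reached 10. The other 4 were HSPA1A, HSPA1B and HSPA1L, the HSP70 genes of chromosome 6, and CRYAB, the alpha-B crystallin gene. By log2 CPM, 41 of the 47 (87.2%) lay above the median of all genes with a read. Levels of different genes are compared per kilobase of the canonical transcript in GENCODE 44. On that scale 36 of the 43 (83.7%) lay above the median of 2.98 log2 CPM per kilobase over the 12432 protein-coding genes with at least 10 reads, and their own median was 6.90. The 43 genes ran from 11.65 for HSPA8 down to −1.74 for DNAJA4. With the 4 low genes included, the median of all 47 was 6.85, the level of HSPA4. The counting bounds of HSPA4 were 6.84 and 6.86, which cover the reads of that gene only and are not an interval for the median. Other choices of length moved the median to 6.10 or 7.58.

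**Figure D1:**
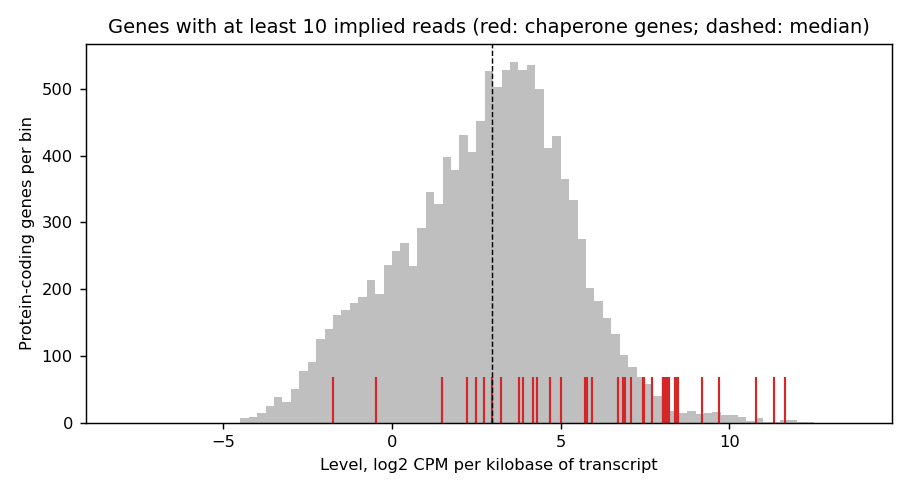
Distribution of the level, in log2 CPM per kilobase of transcript, over protein-coding genes with a mean of at least 10 implied reads (grey bars, genes per bin of the level), with the 43 chaperone genes that passed this minimum as red lines. Most red lines sit to the right of the dashed median of 2.98, and the 3 farthest right are HSPA8, HSP90AA1 and HSP90AB1.

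The chaperone genes as a whole summed to 35952 CPM, 3.64% of the sum over all genes. HSP90AA1, HSPA8 and HSP90AB1 alone made up 56.0% of that sum, and the 8 CCT genes 15.2%. Among 19178 protein-coding genes ranked per kilobase, 5 members stood in the first 100: HSPA8 (rank 8), HSP90AA1 (11), HSP90AB1 (18), HSPD1 (56) and PTGES3 (88). For orientation, GAPDH had 11.75, EEF1A1 11.23, ACTB 10.02, HPRT1 6.10 and TBP 3.94 log2 CPM per kilobase.

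HSP70 proteins showed the widest range of any role. HSPA8 (chromosome 11, 123057489 to 123062462, hg38 as for all gene positions here) encodes HSC70, the constitutive HSP70 of the cytosol, and had 12.83 log2 CPM, an implied 134335 reads. HSPA14, which encodes a ribosome-associated HSP70, had 1969 reads and 5.92 log2 CPM per kilobase. It shares 18.0% of its exon bases on the same strand with MSANTD7, so reads there may not be separated. HSPA2, best known from the testis, had 127 reads. HSPA6, a strictly inducible HSP70 gene found in humans but not in mice, had 30.7 reads. Per kilobase HSPA8 stood 10.18 log2 units above HSPA2 and 12.13 above HSPA6. These differences are far larger than what the choice of length moves, since the smallest values over 4 choices of length were 1164-fold for HSPA2 and 2542-fold for HSPA6.

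The best-known inducible HSP70 genes were almost unread. HSPA1B had an implied 3.05 reads and HSPA1A 1.21. HSPA1L, whose transcript is typical of the testis, had no read in any library, which allows up to 0.0272 CPM (3 reads in all 6 libraries, counting error only). These 3 genes lie side by side in the major histocompatibility region of chromosome 6 (HSPA1L at 31809619 to 31815283, HSPA1A at 31815543 to 31817942, HSPA1B at 31827738 to 31830254). The gap between HSPA1L and HSPA1A is 259 bases, and that between HSPA1A and HSPA1B 9795 bases.

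Whether that low count is particular to these genes was examined in their neighbours. Of 87 other protein-coding genes that start within 1 Mb of HSPA1A, 0 reached 10 reads on average, and the highest had 4.03. They include genes that cells use in general, which were picked as examples after their values were seen. LSM2 and DDX39B, which act in RNA splicing, were at 0 reads, and CSNK2B, a casein kinase subunit, had 1.30. From 1 to 3 Mb, 11 of 94 genes (11.7%) reached 10 reads, from 3 to 6 Mb 58 of 132 (43.9%) and from 6 to 12 Mb 64 of 104 (61.5%). These bands join both sides of HSPA1A, and all 11 genes of the band from 1 to 3 Mb lie after it. The band from 3 to 6 Mb holds many clustered histone genes with under 10 reads and no window in alternate contigs, the other versions of genome parts described below. Between the nearest genes on either side with at least 10 reads, SCAND3 (32.4 reads, 3.25 Mb before) and BRD2 (89.5 reads, 1.15 Mb after), lie 144 protein-coding genes. This nearly unread stretch covered HSPA1A, HSPA1B and HSPA1L together with their neighbours.

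**Figure D2:**
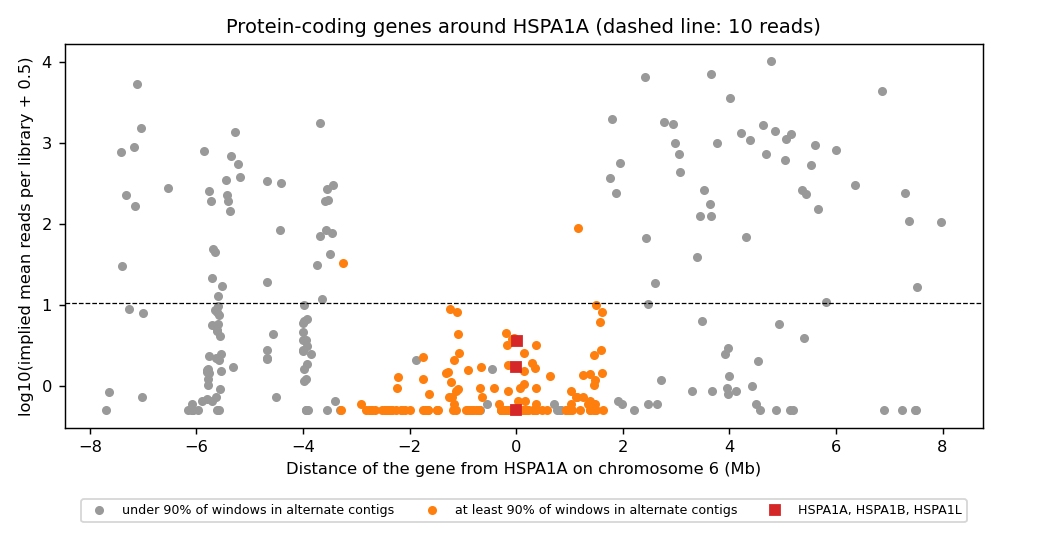
Each point is a protein-coding gene of chromosome 6, placed by the distance of its start from HSPA1A (horizontal axis, Mb) and by log10 of its implied mean reads per library plus 0.5 (vertical axis), with the HSP70 genes as red squares, genes with at least 90% of their windows in alternate contigs in orange and the others in grey. Within the 8 Mb shown on each side, the orange genes other than SCAND3 and BRD2 lie below the dashed line of 10 reads, and grey genes on both sides of the stretch reach well above it. Grey genes inside the stretch also lie below the line.

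The sequence of the same genes was then compared with the whole hg38 assembly. The hg38 FASTA used here holds 455 sequences, and 261 of these are alternate contigs, other versions of parts of the genome (16 of them for chromosome 6). Windows of 64 bases were taken every 25 bases inside exons, and exact copies were counted on both strands. All windows of HSPA1A, HSPA1B and HSPA1L had a second copy (100% of 94, 99 and 107 windows). In alternate contigs alone the shares were 96.8%, 96.97% and 100%, and on the main chromosomes or unplaced sequence they were 74.5%, 70.7% and 0.935%. HSPA1A and HSPA1B thus had copies both outside and inside the alternate contigs, and HSPA1L nearly only inside. The most copied coding window of HSPA1A is shown as an example of a stretch that by itself matches several places. It lies at chr6:31816518-31816581 (plus strand) and occurs 3 times on the main chromosomes, itself included, and 12 times in alternate contigs.
HSPA1A: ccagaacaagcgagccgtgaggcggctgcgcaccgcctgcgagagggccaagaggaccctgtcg

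Across all protein-coding genes, low reads went along with copies in alternate contigs. Of 657 genes with at least 90% of their windows in such contigs, 104 (15.8%) reached 10 reads, against 11167 of 16887 genes (66.1%) with no window there. On chromosome 6 these were 4 of 166 (2.41%), and on the other chromosomes 100 of 491 (20.4%). Within 1 Mb of HSPA1A, 79 of the 87 other genes had at least 90% of their windows in such contigs. The rest of the 87 were also under 10 reads. Examples picked after their values were seen are HLA-DRB1 (16.2% of windows, 0 reads) and HLA-DQB1 (7.55%, 0 reads). Genes with and without such copies were not matched by kind. Those with copies include a run of olfactory receptor genes on chromosome 6, most of them at 0 reads, so the shares may differ for other reasons. Whether the authors' alignment included these contigs, and how reads with several positions were counted, is not given in the sources used here and was not tested. The values of HSPA1A, HSPA1B and HSPA1L are therefore uncertain as levels of these mRNAs.

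**Figure D3:**
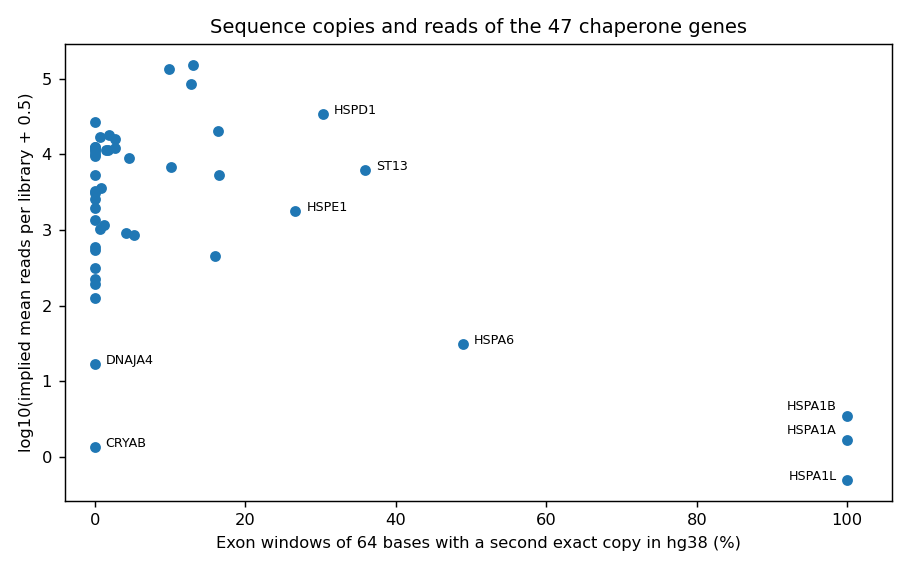
Each point is 1 of the 47 chaperone genes, by the share of its exon windows of 64 bases that have a second exact copy in hg38 (horizontal axis, %) and log10 of its implied mean reads per library plus 0.5 (vertical axis). HSPA1A, HSPA1B and HSPA1L stand at 100% with at most 3.05 reads, while CRYAB and DNAJA4 are low with 0% copied.

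For the other 44 members such copies were fewer. In 21 of them no window had a second copy, and in 23 between 0.709% (HSPA9) and 48.9% (HSPA6) had one. HSPA6 shares its copied stretches with a single other place on the main chromosomes in the window printed here (chr1:161524665-161524728, plus strand), which occurs 2 times in hg38.
HSPA6: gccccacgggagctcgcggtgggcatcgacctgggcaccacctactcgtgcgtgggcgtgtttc
ST13 had 35.9%, HSPD1 30.3%, HSPE1 26.7%, DNAJB6 16.5%, PTGES3 16.4% and HSPB1 16.0% of windows copied. Reads from these stretches could be split or dropped, so their levels are uncertain. The windows of 64 bases are shorter than the paired reads of 150 bases, and inexact copies were not counted. The share of copied windows therefore does not measure how many reads were affected. CRYAB, a small heat shock protein of lens and muscle, had 0.86 reads with no copied window, and DNAJA4, a J-domain protein, had 16.8 reads with none. For these 2 genes the low values do not coincide with copied sequence.

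HSP90 genes were both near the top. HSP90AA1 (chromosome 14, 102080742 to 102139749), the stress-inducible form, had 13.01 log2 CPM and an implied 152247 reads. HSP90AB1 (chromosome 6, 44246194 to 44253883), the constitutive form, had 12.16 and 84133 reads. Per kilobase HSP90AA1 was 0.52 log2 units higher, a 1.43-fold ratio that ranged from 1.38 to 3.82 over the choices of length. HSP90AB1 also lies on chromosome 6, outside the nearly unread stretch, and had no window in alternate contigs.

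Genes of the HSP90 co-chaperones all had at least 193 reads. PTGES3, which encodes p23, the co-chaperone that holds HSP90 in its closed state, was the highest with 20314 reads and 9.18 log2 CPM per kilobase. STIP1, which encodes HOP, the adaptor between HSP70 and HSP90, followed with 8.18. CDC37, which brings protein kinases to HSP90, had 7.47, AHSA1, the activator of the HSP90 ATPase, 7.08, and CHORDC1 6.90. ST13, an HSP70-interacting protein, had 6.71 and FKBP4, an immunophilin of steroid receptor complexes, 5.72. STUB1, the ubiquitin ligase CHIP that sends chaperone clients to degradation, was the lowest with 193 reads and 2.97 log2 CPM per kilobase. In GENCODE 44, 52.2% of the exon bases of STUB1 overlap exons of JMJD8 on the opposite strand. The use of strand in counting is not stated, so reads of the pair may not be separated.

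Among mitochondrial chaperones, HSPD1 and HSPE1 encode HSP60 and its lid HSP10. The 2 genes stand head to head on chromosome 2 with 104 bases between them. HSPD1 (197486584 to 197500274) had 34437 reads and 9.70 log2 CPM per kilobase, and HSPE1 (197500379 to 197503449) had 1770 reads and 7.43. The ratio per kilobase was 4.82-fold, and 2.76 to 5.08-fold over the choices of length. HSPE1 shares 34.5% of its exon bases on the same strand with the read-through gene HSPE1-MOB4, while the exons of HSPD1 overlap none of another gene. Copied windows made up 26.7% in HSPE1 and 30.3% in HSPD1, so both values are uncertain. HSPA9, which encodes the mitochondrial HSP70 mortalin, had 17059 reads and 7.72 log2 CPM per kilobase, 3.94 log2 units under HSPA8.

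Nucleotide exchange factors of HSP70 differed by family. In the HSP110 family, HSPH1 had 26697 reads, HSPA4 10125 and HSPA4L 919. Per kilobase HSPH1 was 2.40-fold above HSPA4 (1.74 to 2.40 over the choices of length), and HSPA4 was 24.5-fold above HSPA4L (20.6 to 24.5). The BAG proteins and HSPBP1 lay between HSPA4 and HSPA4L per kilobase of the canonical transcript. With the mean transcript length BAG2 (3.24) lay below HSPA4L (3.74). BAG3, which links HSP70 with selective autophagy and with HSPB8, had 2552 reads and 5.76 log2 CPM per kilobase. HSPBP1 had 4.29, BAG1 3.89 and BAG2 3.24, all 3 under BAG3. For BAG2, 44.2% of the exon bases lie opposite exons of other genes.

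J-domain proteins ranged from 16.8 to 12152 reads. DNAJA1 and DNAJB1, the most abundant, had 8.15 and 8.05 log2 CPM per kilobase, a ratio of 1.07 that rose to 2.05 with another choice of length. DNAJB6, which suppresses aggregation of polyglutamine proteins, had 6.87, DNAJA2 5.78, DNAJB4 4.68 and DNAJB2, known from neurons, 2.48. Per kilobase HSPA8 exceeded DNAJA1 by 11.3-fold.

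Small heat shock proteins, which hold unfolded proteins without ATP, were among the lower members. HSPB1, which encodes HSP27, had 459 reads and 5.01 log2 CPM per kilobase, and HSPB8 had 228 reads and 2.74. The heat shock factors themselves were nearer the median of 2.98 than most members. HSF2 had 867 reads and 4.18 log2 CPM per kilobase, and HSF1, the main factor of the heat shock response, 538 reads and 3.78. Their ratio was 1.32-fold with a range of 1.02 to 2.1 over the choices of length, and HSF2 was the higher under each of the 4 choices.

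**Figure D4:**
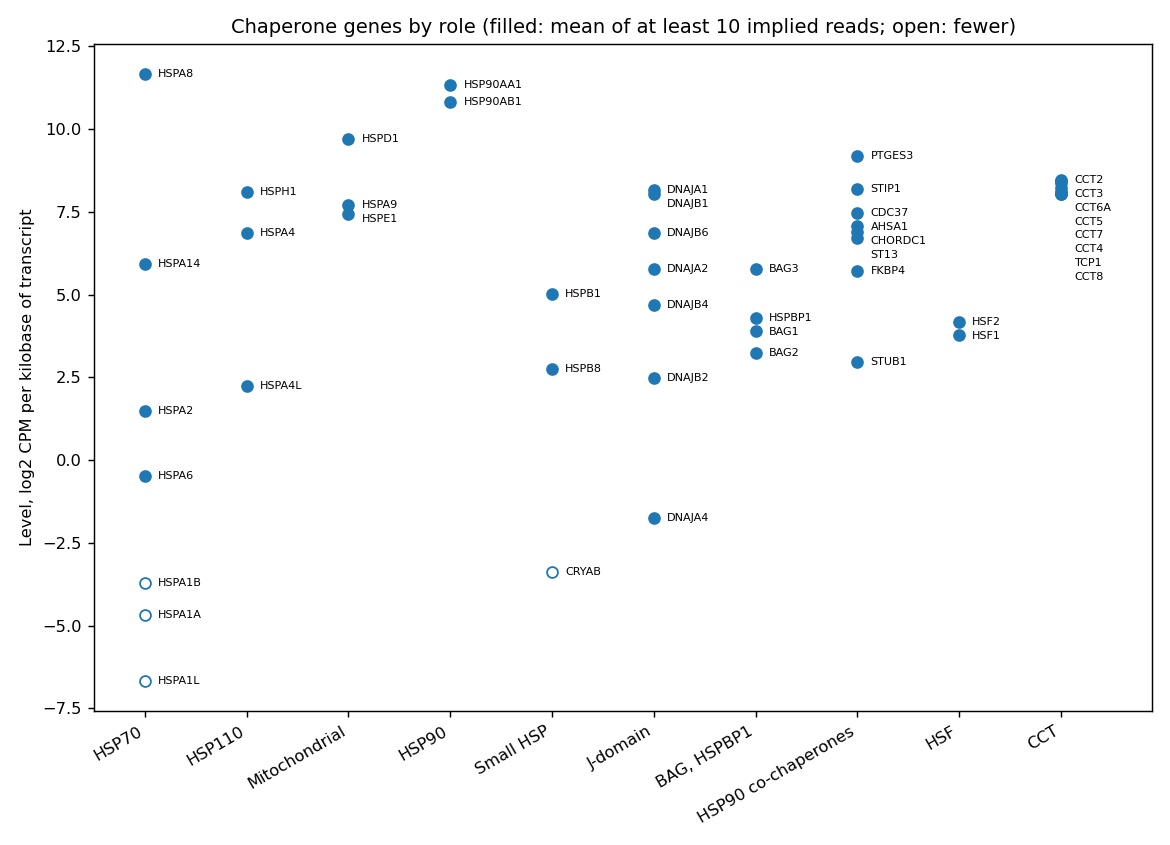
Level of each of the 47 genes in log2 CPM per kilobase of transcript (vertical axis), grouped by role along the horizontal axis, as the authors' mean over both treatments without error bars. Filled circles had at least 10 implied reads and open circles fewer, so HSPA1A, HSPA1B, HSPA1L and CRYAB are values near the lowest the table can show. HSP70 genes run from 11.65 for HSPA8 to the open circles, and the CCT genes form a tight cluster.

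The CCT chaperonin is a double ring in which every ring holds each of the 8 subunits at a fixed place, so the levels of its genes can be set side by side. Among the roles with at least 3 genes they were the most even. CCT2 was the highest with 8.46 log2 CPM per kilobase, followed by CCT3 (8.43), CCT6A (8.38), CCT5 (8.21), CCT7 (8.11), CCT4 (8.06), TCP1 (8.05) and CCT8 (8.03). The range was 0.43 log2 units, a ratio of 1.35 between the highest and the lowest, with a counting interval of 0.42 to 0.45. It was 0.94 when the mean length over all transcripts of a gene was used, so part of this range depends on the length assigned to each gene. In reads per library the subunits ran from 8944 (CCT8) to 17916 (CCT5). At most 4.55% of the windows of a CCT gene had a second copy, although exons of other genes lie opposite 52.7% of the exon bases of CCT5, 19.3% of those of TCP1 and 19.2% of those of CCT4.

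**Figure D5:**
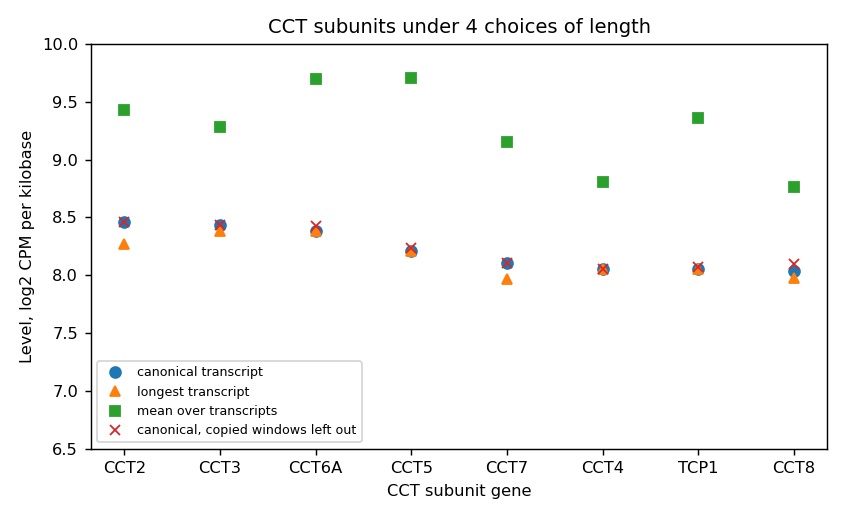
Levels of the 8 CCT subunit genes in log2 CPM per kilobase (vertical axis), each as the authors' mean over both treatments, under 4 choices of the length, namely canonical transcript, longest transcript, mean over transcripts, and canonical without copied windows. With the canonical length the genes lie between 8.03 and 8.46, and the squares of the mean length lie higher and are more spread.

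Neighbours in the order of levels were often not separable. Of 42 neighbouring pairs among the 43 members with at least 10 reads, 23 changed order under at least 1 other choice of length. The first 10 members, HSPA8, HSP90AA1, HSP90AB1, HSPD1, PTGES3, CCT2, CCT3, CCT6A, CCT5 and STIP1, shared 9 genes with the first 10 under the longest transcript.

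Other genes of the same pathways were taken from lists of general knowledge, and the highest and lowest per kilobase of each list are named. Prefoldin hands clients to CCT, and 5 of its 6 subunit genes had at least 10 reads, led by PFDN5 with 1928 reads and 7.46 log2 CPM per kilobase. The sixth, PFDN6, lies 1.47 Mb after HSPA1A, past BRD2, and had 0.10 reads. Of its windows 100% had a copy in alternate contigs, so this value too is uncertain as a level of its mRNA. Of 10 other HSP90 co-chaperones 9 had at least 10 reads, from NUDC with 3575 down to TTC4, the exception, with 6.73. Of 6 other members of the HSP70 and HSP90 families 5 did. HSP90B1, the HSP90 of the endoplasmic reticulum, was the highest with 26911 reads and 9.04 log2 CPM per kilobase, and HSPA12B the lowest with 8.67 reads. All 11 other J-domain genes did, from DNAJC8 with 3581 reads to DNAJB5 with 43.5. Of 6 other BAG proteins and heat shock factor regulators 4 did, with HSBP1, a small inhibitor of HSF1, the highest at 3581 reads and HSF5 the lowest at 0.10. BAG6, named here because it lies on the nearly unread stretch, had 2.66. Of 4 other chaperonin genes and helpers 3 did, from TXNDC9 with 1273 reads to CCT6B, a testis form of CCT6A, with 8.64. Of 6 other small heat shock genes found, 1 did (HSPB6, 15.8 reads), and HSPB7 was at 0.

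The label of the cells was checked against marker genes. Of 9 melanocyte lineage genes 6 had at least 10 reads. SOX10 and MITF, transcription factors of that lineage, had 919 and 499, PAX3 299, S100B 51.0, MLANA 36.6 and TYRP1 11.0, whereas the pigment genes PMEL (5.75), DCT (4.74) and TYR (0) were under that minimum. Of 22 markers of other cell types, 10 had at least 10 reads. The highest of each list were KRT10 (469 reads) for keratinocytes, LUM (87.6) for fibroblasts, LYZ (79.9) for leukocytes and KDR (33.4) for endothelium, and the lowest per kilobase of the keratinocyte, fibroblast and endothelial lists (DSG3, COL1A2 and VWF) had under 1 read. The part of other cells in any level above was not tested.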

How the data were processed

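RNA-seq was carried out on A375 cells cultured for 6 h with 0.01% olive oil or 0.01% ozonated olive oil, 3 libraries each. Per the labels and the study's methods, directional paired-end libraries (150 bases) were aligned to hg38 with HISAT2 2.1.0, counted with featureCounts 2.1.1 and analysed with limma 3.58.1. The strand setting, the normalization factors and the contigs of the alignment reference are not given in the sources used here. A low-count filter is not described either, and the 7012 genes with no read in any library were still present, so none had removed them. The deposited table holds the authors' mean log2 CPM over all 6 libraries (voom scale) and the authors' own comparison of the groups (log2 fold change, moderated t, p-value, adjusted p-value and log odds). The latter columns were not used, and the difference between the groups was not analysed here.

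A mean level was converted to implied reads per library relative to the lowest value of the table, which is that of genes with 0 reads and a pseudocount of 0.5. The result is a geometric mean over libraries. Of 11518 genes with low values, 100% gave the whole product over libraries that this requires (tolerance 0.001). These include the 7012 genes at the lowest value, which meet it by construction, so only the remaining genes test it. The depth was 18409902 fragments (geometric mean). Levels per kilobase used the canonical transcript of GENCODE 44, to which 25497 genes were matched by Ensembl identifier, and other lengths as alternatives. Exon windows of 64 bases every 25 bases were matched exactly to hg38, on coordinates of hg38 throughout. Promoters were taken from RefSeq (GRCh38.p14). Conversions and window matching were tested on simulated data. Python 3.11.15, pandas 2.3.3, numpy 2.4.6 and scipy 1.17.1 were used.

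Any of the 47 genes could be named. Of other lists, the highest and lowest gene per kilobase, all melanocyte markers and the orientation genes were named. BAG6, DNAJA3 and neighbours of HSPA1A were named outside this rule, after their values were seen. A marker gene is not reported here. The members and lists were chosen with earlier results of these data known. Alternatives are given in the closing section.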

Additional observations from a re-analysis of the deposited data

How the results depend on the processing

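Of 15 alternatives, 9 left their value within its limits and 6 moved it. These limits differed in kind between results, so the tally does not measure robustness. For the share of members above the median they were a Wilson interval for a proportion, 74.8% to 94.0%. That interval treats the chosen members as random draws. For the median level and the CCT range they were counting bounds, 6.84 to 6.86 and 0.42 to 0.45. Such bounds cover read counting only, so small shifts counted as moved. With the longest transcript as length the median level of the members was 6.10 log2 CPM per kilobase and with the mean transcript length 7.58, against 6.85. Without HSPA1A, HSPA1B and HSPA1L (chosen after seeing the data) it was 6.89. The range of the CCT genes was 0.41 with the longest transcript, 0.94 with the mean length and, with copied windows left out of the length (chosen after seeing the data), 0.41, against 0.43. Members with a sufficient number of reads were 44 at a minimum of 3 reads and 42 at 30. The share of members above the median ranged from 78.7% to 93.2%. No paired analysis was possible because no value per library was used. For the same reason the alternatives planned for OZO against OLO (other count tests, normalization and filters, the replicate block, and leaving out each replicate) were not run. Without values per library, no level carries a replicate error.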

Other observations

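A pair of genes with all their windows in alternate contigs is given as examples, chosen after their values were seen. TUBB, the main beta tubulin gene and a client of the CCT ring, lies before HSPA1A on the same stretch of chromosome 6 and had 3.91 reads, while ACTB, which encodes actin, had 34622. DNAJA3, a J-domain protein of mitochondria on chromosome 16, had 58.8 reads, the second lowest of 11 other J-domain genes. The part of the alignment reference in these values was not tested.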
